A study of Mus musculus with 12 samples.

Results

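Mouse embryonic fibroblasts (MEFs) that carried viruses for GATA4, TBX5 and MEF2C were compared with MEFs that carried the transactivator M2rtTA alone. The comparison rests on 6 of the 12 arrays of the series, 3 of TF group 1 and 3 of the negative control, chosen by their titles, and on 22626 probe sets. All cells were C57BL/6 MEFs transduced with a lentivirus for M2rtTA, which switches on a tet-responsive promoter when doxycycline is present. TF group 1 had in addition 1 lentivirus for each of its 3 factors, TF group 2 had these and viruses for Mesp1 and SMARCD3, and TF group 3 had all of these and viruses for MYOCD and SRF. Total RNA was taken from whole, unsorted cultures after 7 days with doxycycline. Per the labels the replicates are biological, and n = 3 arrays per group holds throughout. The study's methods give valproic acid in the induction media and human cDNAs for all factors except Mesp1. The negative control had fewer viruses than TF group 1, so the load of virus and the factors cannot be told apart.

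GATA4 is a zinc finger protein that binds GATA sites, TBX5 is a T-box protein needed for the chambers and the conduction system of the heart, and MEF2C is a MADS-box protein that drives muscle genes. Together they bind enhancers of genes for the sarcomere, the contractile unit of muscle, in which thin filaments of actin and troponin slide along thick filaments of myosin between Z-discs. Fibroblasts make and remodel connective tissue matrix and normally keep the sarcomere genes of the heart silent. The question of the comparison was which mouse transcripts changed when these factors were delivered without the factors of the other groups.

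The values were 1 linear signal per probe set and array, taken to log2. Levels below are log2 signals and changes are differences of log2 signals, TF group 1 minus negative control. A call required an adjusted p of limma (Benjamini-Hochberg) under 0.05 and a fold change over 1.5, and the brightest probe set stood for each of 12393 genes. A group mean below a signal of 32 (log2 5) is treated as a floor, and a fold against such a group is given as at least so much. Of an array, 21.9% to 24.2% of the probe sets lay below 32. Log2 signals correlated across probe sets at r = 0.960 to 0.965 within the negative control, at 0.962 to 0.964 within TF group 1 and at 0.929 to 0.933 between the groups. Control probe sets moved with the group. The hybridization spikes, a further control set, averaged 9.49 to 9.60 in the negative control and 9.84 to 10.12 in TF group 1. The poly-A spikes, bacterial transcripts added to the RNA before amplification, averaged 6.62 to 7.33 in the negative control and 7.70 to 7.86 in TF group 1, and 18S rRNA probe sets 11.03 to 11.32 and 12.36 to 12.58. The 3′ minus 5′ difference of the beta-actin control was 0.04 to 0.07 and 0.12 to 0.16. With the arrays scaled to their spikes every change is lower by 0.88, so that a rise of less than 0.88 becomes a fall. List counts on that scaling are given as spike-scaled counts beside the main ones. The part of these differences in the results was not tested.

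Genes that rose outnumbered genes that fell. Of the 12393 genes 1867 (15.1%) were called higher and 1107 (8.93%) lower in TF group 1. These are 62.8% and 37.2% of the called genes, against 48.3% and 51.7% with each array centred on its median and 4.89% and 95.1% with the spike scaling. At the level of probe sets 3088 (13.6%) were higher and 2049 (9.06%) lower. The median change over all genes was 0.07. It and the shares of 15.1% and 8.93% are the background for every list of genes below. Lists and members were chosen with earlier results of these data known, so the share of a list is not independent of the calls. The 3 arrays of one group lay wholly above those of the other in 2937 of the 2974 called genes. A call itself favours such genes, and their share over all genes was not counted. Changes of 4-fold or more were seen in 212 genes that rose and 152 that fell. In 267 of the genes that rose the negative control averaged below 32, and in 100 of those that fell TF group 1 did. Of the 1262 called genes with more than 1 probe set, 748 had a further probe set called the same way, and in 12 of all genes probe sets were called in opposite directions.

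**Figure D1:**
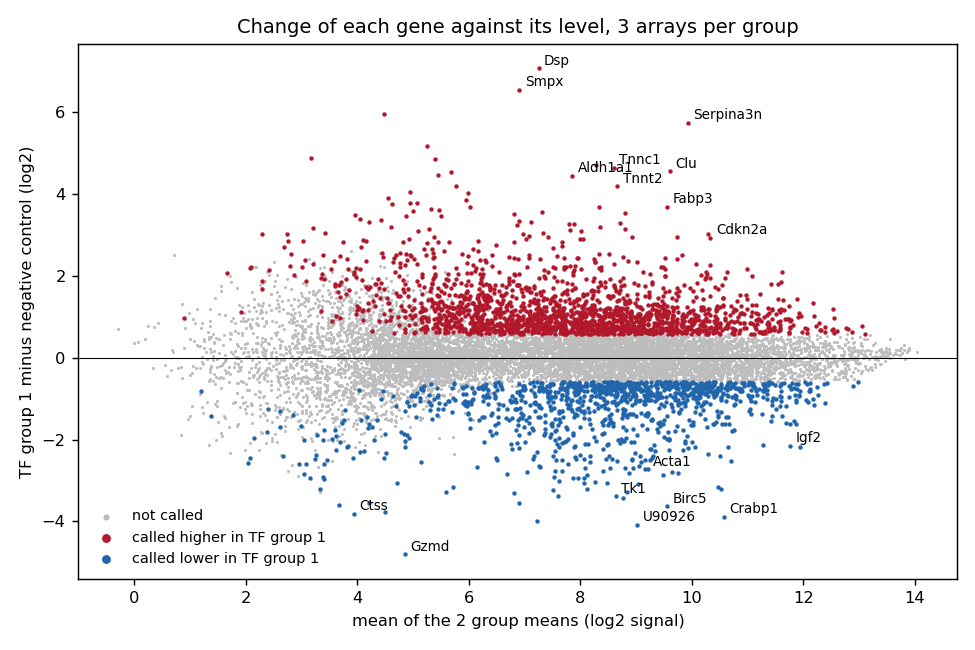
Change of each of the 12393 genes (TF group 1 minus negative control, log2, vertical axis) against the mean of its 2 group means (log2 signal, horizontal axis). Red points are the 1867 genes called higher and blue points the 1107 called lower. The largest rises, Dsp and Smpx, came from genes that were dim in the negative control, while Crabp1, Birc5 and U90926 fell from bright levels.

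The 3 delivered factors left unequal marks on their own probe sets. Mef2c was 6.28, 6.12 and 6.41 in the negative control and 8.88, 9.06 and 9.32 in TF group 1, so the groups were well apart (change 2.82, SE 0.13, limma adjusted p = 4.35e-07). Its 4 other probe sets changed by 0.24 to 1.02, and 1 of them was called. Tbx5 stood at 6.28, 6.39 and 6.87 against 7.14, 7.07 and 6.97, without overlap, but its change of 0.55 lay below the fold threshold. Gata4 was 2.40, 4.83 and 5.33 against 5.23, 5.65 and 5.20, which overlap. The other probe set of Tbx5 averaged 3.04 and 4.43 and that of Gata4 4.24 and 3.79. All of these means lay below 32, the groups overlapped and neither probe set was called. Whether the mouse probe sets detect the human cDNAs was not tested, so delivered and endogenous transcripts cannot be told apart here. Of factors that TF group 1 did not receive, Smarcd3, which belongs to the BAF complex that moves nucleosomes, rose from 8.45, 7.96 and 8.19 to 9.51, 9.17 and 9.49. Srf, which drives cytoskeletal and immediate early genes, fell from 9.58, 9.77 and 9.54 to 8.66, 8.66 and 8.88 (change -0.90, SE 0.12). Myocd had a mean of 5.53 against 5.03 and Mesp1 of 6.97 against 6.85, and neither was called.

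Some sarcomere genes rose, those of the troponin complex among them. Of 15 thin filament genes measured 4 (26.7%) rose and 1 (6.67%) fell (3 and 5 spike-scaled), with a median change of 0.51. Over all genes the shares were 15.1% and 8.93%. Tnnt2, the troponin subunit that anchors the complex to tropomyosin, was 6.50, 6.58 and 6.62 in the negative control and 10.81, 10.68 and 10.79 in TF group 1, an 18.3-fold rise with no overlap (SE of the log2 change 0.06, adjusted p = 3.95e-10). Tnnc1, the calcium-binding subunit of slow and cardiac muscle, rose 25.0-fold, from 6.15, 6.55 and 6.14 to a mean of 10.92, with the lowest array at 10.83. Tnni1, the inhibitory subunit of slow skeletal and fetal heart muscle, rose at least 4.87-fold, from 2.57, 3.76 and 4.68 to 7.32, 7.19 and 7.35. The adult cardiac form Tnni3 was called higher, but both groups averaged below 32 (2.79 and 4.57), so no fold is given. Its call was lost without TF group 1 replicate 2 or 3 or negative control replicate 3 (limma adjusted p = 0.0531, 0.0543 and 0.0533). The actins went another way. Acta1, skeletal muscle actin, fell 6.62-fold, from 10.47, 10.66 and 10.60 to 7.76, 7.87 and 7.92. Cardiac actin Actc1 stood at 7.18, 6.20 and 6.62 against 7.15, 7.27 and 7.11, overlapping groups that did not pass the test (change 0.51, SE 0.23).

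Of 13 genes of the thick filament and titin 3 (23.1%) rose and 1 (7.69%) fell (3 and 2 spike-scaled). Mybpc3, cardiac myosin-binding protein C, rose 12.9-fold, from 6.70, 6.41 and 6.39 to 10.11, 10.27 and 10.18. The atrial light chains rose less. Myl4, the essential one, went from 6.89, 6.90 and 6.75 to 8.65, 8.69 and 8.71, and Myl7, the regulatory one, from 5.29, 4.31 and 4.94 to 6.86, 6.40 and 6.67. Myl2, the ventricular regulatory chain, fell instead, from 5.89, 5.10 and 5.30 to a mean of 4.34 with all 3 arrays below those of the negative control (at least 1.34-fold lower, adjusted p = 0.00281). The myosin heavy chains did not pass the test. Myh6, the alpha chain of the heart, averaged 1.84 and 1.34, below the floor in both groups, and Myh7, the beta chain, ranged from 4.04 to 6.27 against 4.97 to 6.47.

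At the Z-disc and costamere 6 (28.6%) of 21 measured genes rose and 2 (9.52%) fell (4 and 8 spike-scaled). Smpx, a small protein of the costamere, the attachment of the Z-disc to the membrane, rose at least 36.6-fold, from 3.08, 3.10 and 4.71 to 10.18, 10.26 and 10.14. Pdlim3, an alpha-actinin-associated protein, rose at least 8.06-fold and Ldb3, which ties alpha-actinin into the Z-disc, 9.60-fold. Myoz2 (calsarcin) rose at least 1.65-fold. Fhl2, a LIM protein, and Cavin4, a muscle caveolar protein, fell by 0.86 and 1.22.

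**Figure D2:**
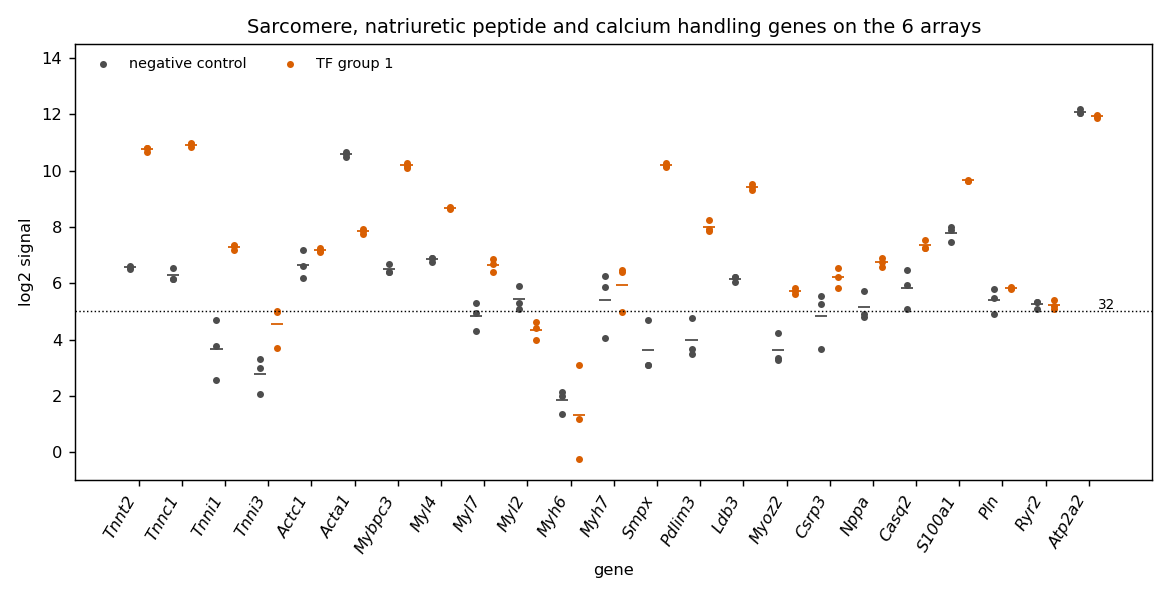
Log2 signal (vertical axis) of 23 genes on the 3 arrays of the negative control (grey) and the 3 of TF group 1 (orange), with a bar at each group mean and a dotted line at a signal of 32. The arrays of the groups are far apart for Tnnt2, Tnnc1, Mybpc3, Smpx and Ldb3, overlap for Actc1, Myh6, Myh7 and Ryr2, and lie in the reverse order for Acta1 and Myl2.

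The promoters of 3 genes of these and the junction lists are shown because they had the largest called rises among those whose window held a GATA site (GATAA or GATAG after A or T), the T-box site (AGGTGT) or the MEF2 consensus. The windows are from RefSeq on GRCm38.p6 and run from 250 bases before to 50 after the start of the transcript, 5′ to 3′ on the strand of the gene, with the sites in capitals on whichever strand they read. Dsp lies at chr13:38151044-38151343 on the plus strand and holds T-box sites whose first bases are -219 and 4 from the start. Smpx lies at chrX:157698723-157699022 on the plus strand with GATA sites at -137, -122 and -27, and Tnnt2 at chr1:135836084-135836383 on the plus strand with 1 GATA site at -166, read on the opposite strand.
Dsp: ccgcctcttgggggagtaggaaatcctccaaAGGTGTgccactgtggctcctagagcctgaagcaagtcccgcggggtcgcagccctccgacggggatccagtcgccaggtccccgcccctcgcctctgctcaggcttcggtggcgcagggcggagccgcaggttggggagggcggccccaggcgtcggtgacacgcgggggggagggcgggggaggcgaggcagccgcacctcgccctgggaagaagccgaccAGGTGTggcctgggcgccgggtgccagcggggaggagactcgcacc
Smpx: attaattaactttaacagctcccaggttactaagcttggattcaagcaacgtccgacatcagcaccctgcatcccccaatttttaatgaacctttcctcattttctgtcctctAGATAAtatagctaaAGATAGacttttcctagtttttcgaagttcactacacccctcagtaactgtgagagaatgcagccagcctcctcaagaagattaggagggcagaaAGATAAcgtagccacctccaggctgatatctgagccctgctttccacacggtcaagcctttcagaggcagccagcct
Tnnt2: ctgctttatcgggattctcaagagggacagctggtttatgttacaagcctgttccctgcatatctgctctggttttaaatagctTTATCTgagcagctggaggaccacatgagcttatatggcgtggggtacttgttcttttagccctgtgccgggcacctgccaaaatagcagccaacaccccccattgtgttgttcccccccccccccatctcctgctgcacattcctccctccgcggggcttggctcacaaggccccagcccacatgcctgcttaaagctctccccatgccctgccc
Over all 9887 tested genes with a window in the table, 21.4% held a GATA site, 11.9% a T-box site and 1.97% the MEF2 consensus. Among the 1495 genes called higher the shares were 20.3%, 13% and 1.94%, and among the 911 called lower 20.2%, 9.11% and 2.52%. Of the 40 sarcomere genes with a window 14 (35.0%) held a GATA site, 4 (10.0%) a T-box site and 5 (12.5%) the MEF2 consensus. A match of letters does not show that a factor binds there, and windows of this length hold no distant enhancers.

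Genes for calcium handling and for electrical activity were counted by list. Of 14 genes of the sarcoplasmic reticulum 3 (21.4%) rose and none fell (2 and 5 spike-scaled), beside 15.1% and 8.93% of all genes. Casq2, the calcium-binding protein of the cardiac reticulum, rose from 6.48, 5.93 and 5.10 to 7.53, 7.25 and 7.27. S100a1, a calcium sensor of heart muscle, rose by 1.87 and Fkbp1b, which binds the ryanodine receptor, by 1.04. Ryr2, the cardiac calcium release channel, averaged 5.25 and 5.23, Pln, the inhibitor of the calcium pump, 5.40 and 5.83, the pump Atp2a2 12.09 and 11.93, and its skeletal form Atp2a1 5.59 and 4.93, and none of these was called. Of the 3 dimmer probe sets of Atp2a2, 2 were called higher (7.46 to 8.22 and 7.17 to 7.79), and the third averaged 9.87 and 10.36. Among calcium and sodium channels 2 of 8 (25.0%) rose and none fell (0 and 3 spike-scaled), one of them the T-type channel Cacna1h, from 6.06, 5.86 and 5.90 to 7.24, 6.98 and 6.40. Cacna1a averaged 6.64 and 7.14 and was not called, while its other probe set was called higher (6.02 to 6.94). Of 17 potassium and pacemaker channels 2 (11.8%) rose and 1 (5.88%) fell (1 and 5 spike-scaled), shares below those of all genes. Popdc3, a Popeye protein that binds cyclic AMP, rose from 6.01, 5.16 and 5.66 to 6.99, 7.25 and 7.07. Kcnj2, Kcnj3 and Kcnk1 were not called. Both natriuretic peptides of the list rose (0 higher and 0 lower spike-scaled). Nppa went from 4.91, 4.82 and 5.74 to 6.57, 6.77 and 6.89, a 3.00-fold rise, and Nppb 1.58-fold, a change of 0.66 that is -0.22 with the spike scaling and 0.52, below the fold threshold, without negative control replicate 1.

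Of 32 cardiac transcription factors that were not delivered 4 (12.5%) rose and 2 (6.25%) fell (0 and 18 spike-scaled), shares below the 15.1% and 8.93% of all genes. Tbx20, a T-box factor of the heart tube, rose from 5.67, 5.64 and 4.32 to 6.62, 6.16 and 6.63. Without TF group 1 replicate 1 or 3 or negative control replicate 3 its call was lost (limma adjusted p = 0.0911, 0.0915 and 0.0942). Gata6, a relative of GATA4, rose from 6.27, 6.37 and 6.29 to 7.16, 7.23 and 7.26 (change 0.91, SE 0.08, adjusted p = 1.2e-05). Hey2, a Notch target that represses atrial genes in the ventricle, fell by 1.06. Nkx2-5 averaged 5.45 and 5.08, Hand1 6.49 and 5.98, Hand2 5.47 and 5.57 and Hopx 8.08 and 8.32, and none of these 4 was called.

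Smooth and skeletal muscle genes were counted in the same way. Of 20 smooth muscle genes 1 (5%) rose and 4 (20%) fell (0 and 16 spike-scaled), beside 15.1% and 8.93% of all genes. Actg2, enteric smooth muscle actin, fell 3.03-fold, from 12.36, 12.65 and 12.46 to a mean of 10.89, without overlap, and calponin (Cnn1) 2.52-fold. Acta2, the aortic smooth muscle actin, was 13.75, 13.79 and 13.96 against 13.87, 13.79 and 13.78 on its brightest probe set, while its dimmer one was called lower (6.15 to 4.96, at least 2.21-fold). Tagln changed by -0.38, below the fold threshold. Myh11, smooth muscle myosin, averaged 5.86 and 5.83, Kdr, a receptor of endothelial and early cardiac cells, 5.45 and 4.51 and Myl6 8.73 and 8.69, and none of them was called. Of 19 skeletal muscle genes none rose and only Eno3, muscle enolase, fell (by 1.64), against 0 and 8 spike-scaled.

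Genes of cell junctions held the largest rise of the comparison. Desmosomes rivet neighbouring cells together by their intermediate filaments and join heart muscle cells at the intercalated disc. Of 9 desmosome genes 5 (55.6%) rose and 1 (11.1%) fell (3 each spike-scaled), with a median change of 1.20. The shares over all genes were 15.1% and 8.93%. Dsp, desmoplakin, which links the plaque to the filaments, was 3.82, 3.73 and 3.61 in the negative control and 10.71, 10.82 and 10.85 in TF group 1, at least 55.5-fold higher. Of its 2 other probe sets one rose by 5.37 and one stood at 5.40 and 5.39. Perp, a membrane protein of desmosomes that is also a p53 target, rose 7.79-fold, from 8.27, 8.01 and 8.48 to 11.24, 11.20 and 11.19. The cadherins Dsg2 and Dsc2 rose by 1.93 and at least 2.17-fold and plakoglobin (Jup) by 1.36. Outside the desmosome F11r, an adhesion molecule of tight junctions, rose 11.6-fold, from 7.03, 7.20 and 6.89 to 10.59, 10.47 and 10.66. Among 7 gap junction genes Gjb2 and Gjc1, connexins, fell by 2.50 and 1.60 and Gjb5 rose by 0.82 (0 higher and 4 lower spike-scaled).

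The other genes among the 12 largest rises were of several kinds. Serpina3n, a secreted protease inhibitor of the acute phase, rose 53.8-fold, from 7.29, 6.51 and 7.39 to 12.89, 12.70 and 12.85. Serpinb1a, an inhibitor of neutrophil proteases, rose 26.2-fold, from 6.26, 5.78 and 5.75 to 10.68, 10.54 and 10.72. Clu, the extracellular chaperone clusterin, rose 23.6-fold, from 7.13, 7.31 and 7.57 to 11.92, 11.84 and 11.93, and the changes of its 3 other probe sets were 4.72 to 5.40. Serpina5, Serpinb7, the carboxypeptidase Cpz, Anxa10, the aspartyl protease Bace2 and the cytochrome Cyb561 were below 32 on average in the negative control. They rose at least 7.20-, 1.54-, 5.48-, 7.11-, 7.80- and 6.47-fold. Their control arrays spread widely. Bace2 was 5.29, 0.31 and 4.65 there and 8.15, 7.84 and 7.90 in TF group 1, and Serpina5 1.49, 1.68 and 4.82 against 7.91, 7.71 and 7.92.

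The 12 largest falls mixed cell cycle genes with others. U90926, a gene without a known protein function, fell 17.0-fold, from 11.04, 11.07 and 11.09 to 6.98, 6.86 and 7.10. Lrr1, a leucine-rich repeat protein that helps to unload the replication machinery, fell 16.0-fold, from 8.86, 9.47 and 9.33 to 5.71, 5.54 and 4.40. Tfpi2, a matrix-associated inhibitor of serine proteases, fell 11.7-fold, from 8.57, 8.76 and 8.70 to 4.65, 5.29 and 5.44. The granzyme Gzmd, the chemokine Ccl20, the lysosomal protease cathepsin S (Ctss), the phosphodiesterase Gdpd3 and thrombospondin 4 (Thbs4) fell to group means below 32, at least 4.78-, 2.58-, 1.79-, 1.38- and 1.99-fold. The groups overlapped in none of these 8 genes, since groups apart were a condition for the 12 largest rises and falls. The call of Ccl20 was lost without TF group 1 replicate 3 (limma adjusted p = 0.0568).

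Retinoid genes moved in both directions. Of 18 genes for retinoid binding, synthesis, breakdown and receptors 5 (27.8%) rose and 3 (16.7%) fell (3 and 8 spike-scaled). The shares over all genes were 15.1% and 8.93%. The enzymes that make retinoic acid rose. Aldh1a1 went from 5.33, 6.02 and 5.54 to 10.03, 10.03 and 10.18, a 21.9-fold rise, and Aldh1a2 from 6.09, 6.37 and 6.00 to 7.98, 7.79 and 7.81. Rbp4, the retinol carrier, rose by 1.63. Crabp1, which binds retinoic acid in the cytoplasm, fell 14.8-fold, from 12.45, 12.57 and 12.55 to 8.99, 8.14 and 8.78. Cyp26a1, which breaks retinoic acid down, was called lower with both group means below 32.

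Genes of the dividing cell fell. All 49 measured mitosis genes were called lower (49 spike-scaled), with a median change of -2.39 beside 0.07 for all genes and a background of 8.93% called lower. In bulk RNA fewer dividing cells and less of each transcript per dividing cell cannot be told apart. Mki67, the Ki-67 antigen of cycling cells, fell from 10.54, 10.50 and 10.37 to 6.98, 6.97 and 7.19, a 10.7-fold fall. Birc5 (survivin), a subunit of the chromosomal passenger complex, fell from 11.35, 11.42 and 11.35 to 7.65, 7.75 and 7.84. Kif23, a kinesin of the central spindle, and Cenpe, a kinetochore kinesin, fell 10.5- and 9.42-fold. Ube2c, an enzyme of the anaphase-promoting complex pathway, fell by 3.22. Of 38 DNA replication genes 36 fell and none rose (38 fell spike-scaled), with a median change of -1.67. Thymidine kinase (Tk1) went from 10.23, 10.43 and 10.33 to 6.93, 6.94 and 6.95. Cdc6, which loads the replicative helicase, fell by 2.91 and the polymerase subunit Pole by 3.31. Of 21 genes of DNA repair and checkpoints 15 fell and none rose (20 fell spike-scaled), among them Blm, a helicase, which fell by 1.93.

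The promoters of the mitosis genes with the largest called falls and a motif are shown, with the CCAAT box (CCAAT), bound by NF-Y, and the cell cycle homology region or CHR (TTTGAA or TTCGAA), bound by the complexes that repress these genes in resting cells, in capitals on either strand. They are RefSeq windows of GRCm38.p6 of the same length as above. Mki67 lies at chr7:135716330-135716629 on the minus strand with 3 CCAAT boxes, at -188, -166 and -141, and CHR motifs at -116 and -98. Kif23 lies at chr9:61946750-61947049 on the minus strand with a CCAAT box at -7 and a CHR at 2, and Cenpe at chr3:135212313-135212612 on the plus strand with 1 CCAAT box at -12.
Mki67: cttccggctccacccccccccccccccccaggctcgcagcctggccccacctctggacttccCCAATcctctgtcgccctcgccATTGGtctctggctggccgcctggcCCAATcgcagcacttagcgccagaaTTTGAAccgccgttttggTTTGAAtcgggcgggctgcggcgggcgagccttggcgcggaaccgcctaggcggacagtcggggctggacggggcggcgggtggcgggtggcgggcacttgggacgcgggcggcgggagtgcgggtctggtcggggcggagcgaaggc
Kif23: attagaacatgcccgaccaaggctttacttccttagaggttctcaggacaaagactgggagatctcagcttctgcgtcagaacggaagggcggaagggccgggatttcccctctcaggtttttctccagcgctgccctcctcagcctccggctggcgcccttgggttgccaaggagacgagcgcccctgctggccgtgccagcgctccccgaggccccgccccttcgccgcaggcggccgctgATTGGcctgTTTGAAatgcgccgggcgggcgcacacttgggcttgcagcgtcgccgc
Cenpe: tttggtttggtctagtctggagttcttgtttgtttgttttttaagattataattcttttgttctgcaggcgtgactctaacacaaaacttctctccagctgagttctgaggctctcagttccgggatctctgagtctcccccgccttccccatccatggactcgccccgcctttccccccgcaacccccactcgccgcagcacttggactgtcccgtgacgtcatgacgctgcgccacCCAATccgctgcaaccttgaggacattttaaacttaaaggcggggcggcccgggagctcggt
Of the 42 mitosis genes with a window 32 (76.2%) held a CCAAT box and 32 (76.2%) a CHR, against 38.1% and 14.7% of all tested genes. Of the 31 replication genes 11 (35.5%) held an E2F site (TTTCCCGC, TTTCGCGC, TTTGCCGC or TTTGGCGC) and 6 (19.4%) a CHR, and of all tested genes 3.57% held an E2F site. Among all genes called lower 44.1% held a CCAAT box, 21.6% a CHR and 8.12% an E2F site, and among those called higher 40.7%, 13.6% and 2.27%.

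**Figure D3:**
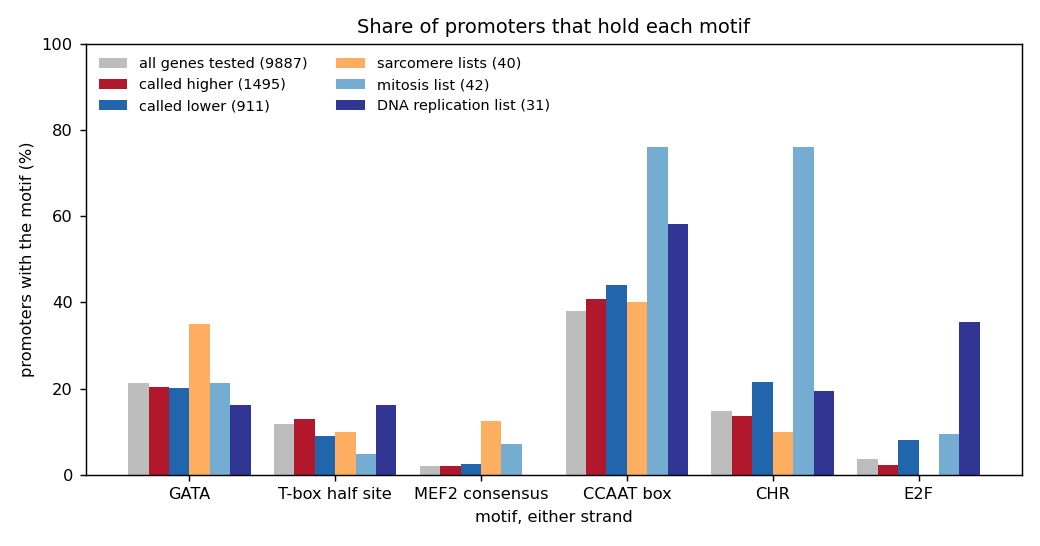
Share of 300-base promoter windows (percent, vertical axis) that hold each of 6 motifs on either strand, for all tested genes, genes called higher, genes called lower and 3 gene lists, with the number of windows in the key. The CCAAT box and the CHR stand out in the mitosis list at 76.2%, the E2F site in the replication list at 35.5%, and the GATA shares of called genes lie near 21.4%, that of all tested genes.

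Several inhibitors of the cell cycle rose. Of 23 genes for cyclins of the first gap phase, E2F factors, their partners and inhibitors 5 rose and 7 fell (1 and 15 spike-scaled). Cdkn2a, which encodes the inhibitors p16 and p19Arf, rose 7.61-fold, from 8.40, 9.23 and 8.99 to 11.91, 11.70 and 11.79. Cdkn1a (p21), the p53 target that stops cyclin-dependent kinases, rose from 11.84, 11.99 and 12.00 to 13.20, 13.13 and 13.07, and Cdkn2b (p15) by 1.08. The pocket proteins split, with Rbl2, which acts in resting cells, higher by 1.28 and Rbl1, an E2F target, lower by 1.08. Cyclin E2 (Ccne2) fell 7.73-fold and E2f8, an atypical E2F, by 2.10.

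Of 20 p53 targets 13 (65%) rose and none fell (4 and 3 spike-scaled), with a median change of 0.75, beside 15.1% and 8.93% of all genes. Perp, described above, is 1 of those that rose. The death receptor Fas rose 7.44-fold, from 6.31, 6.49 and 6.82 to 9.58, 9.32 and 9.41. Trp53inp1, a stress-induced partner of p53, rose from 10.03, 9.83 and 9.92 to 12.26, 12.13 and 11.86. Pmaip1 (Noxa), a cell death activator, rose by 1.75. The groups overlapped in none of these 3 genes, but they were named from the largest called rises of the list, which favours groups apart.

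Chromatin genes moved in both directions. Of 24 genes for histones and chromatin enzymes 6 (25%) rose and 8 (33.3%) fell (2 and 15 spike-scaled), beside 15.1% and 8.93% of all genes. Hmgb2, a chromatin protein of dividing cells, fell by 2.24, Ezh2, the methyltransferase of Polycomb in dividing cells, by 1.78 and the maintenance methyltransferase Dnmt1 by 1.51. The linker histone H1f2 rose from 10.72, 10.72 and 10.62 to 12.44, 12.58 and 12.59, Hdac11, a deacetylase, by 1.63 and Ezh1, the Polycomb methyltransferase of resting cells, by 0.86 (a fall of 0.02 spike-scaled). Among 14 BAF subunits the ATPase Smarca2 rose by 1.74 along with Smarcd3, and Actl6a, the subunit of proliferating cells, fell by 1.02 (1 higher and 12 lower spike-scaled).

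Genes that make ribosomes and process RNA leaned downward. Of 23 nucleolar genes 11 fell and none rose, with a median change of -0.58 (23 fell spike-scaled and 16 with the arrays centred on their medians). Nop56 and Nop58, core proteins of the particles that methylate ribosomal RNA, fell by 1.57 and 1.25 and fibrillarin (Fbl), their methyltransferase, by 1.38. Of 25 genes for the spliceosome, hnRNP and SR proteins 11 fell and none rose (25 fell spike-scaled), among them the splicing factor Srsf3 by 1.01.

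Lysosome genes rose. Lysosomes digest proteins, lipids and sugars in an acid lumen, and autophagy delivers the cell's own parts to them. Of 28 lysosome and autophagy genes 27 were called higher and none lower, beside a background of 15.1%, with a median change of 1.02. Like the other lists, this one was chosen with earlier results of these data known. With the arrays centred on their medians 22 rose, and 4 rose and 1 fell spike-scaled. Cathepsin F (Ctsf), a cysteine protease, rose 9.46-fold, from 5.53, 5.08 and 5.13 to 8.46, 8.44 and 8.57. Cathepsin H (Ctsh) rose from 7.30, 7.19 and 7.32 to 9.45, 9.45 and 9.53, and the sialidase Neu1 from 7.02, 6.76 and 6.70 to 8.70, 9.14 and 8.93. Cathepsin D (Ctsd), the main aspartyl protease of the organelle, went from 11.08, 10.77 and 10.98 to 12.40, 12.27 and 12.39. Atp6v1b2, a subunit of the proton pump, rose by 1.57. In none of these 5 genes did the groups overlap, but they were named as the largest called rises of the list, which favours groups apart. Cathepsin S, given above, was not in this list and fell.

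Several genes of fatty acid use and glycolysis rose. Of 30 genes of fatty acid oxidation and muscle energy 13 rose and none fell (3 and 8 spike-scaled), with a median change of 0.62. Fabp3, the fatty acid carrier of heart muscle, rose 13-fold, from 7.61, 7.81 and 7.72 to 11.42, 11.33 and 11.49. Pdk4, which closes pyruvate dehydrogenase, went from 7.99, 7.64 and 7.83 to 9.49, 9.38 and 9.49, and Cpt1a, which brings fatty acids into mitochondria, from 9.44, 9.01 and 9.42 to 10.44, 10.55 and 10.59. Ldhb, the lactate dehydrogenase of heart muscle, rose by 1.92. Of 50 genes of the respiratory chain and ATP synthase 1 rose and 1 fell (45 fell spike-scaled), with a median change of 0.01. Of 20 glycolysis genes 9 rose and 1 fell (3 and 9 spike-scaled), among them the muscle mutase Pgam2 at least 4.38-fold and the glucose transporter Slc2a3 by 1.94. Cholesterol synthesis moved down. Of 22 genes 12 fell and none rose (22 fell spike-scaled), with a median change of -0.65. Idi1, which makes the isoprene unit for synthesis, fell from 10.74, 10.90 and 10.78 to 9.27, 9.36 and 9.05, and Lss, which closes the ring of the sterol, from 9.09, 9.15 and 9.15 to 7.93, 7.65 and 8.01.

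**Figure D4:**
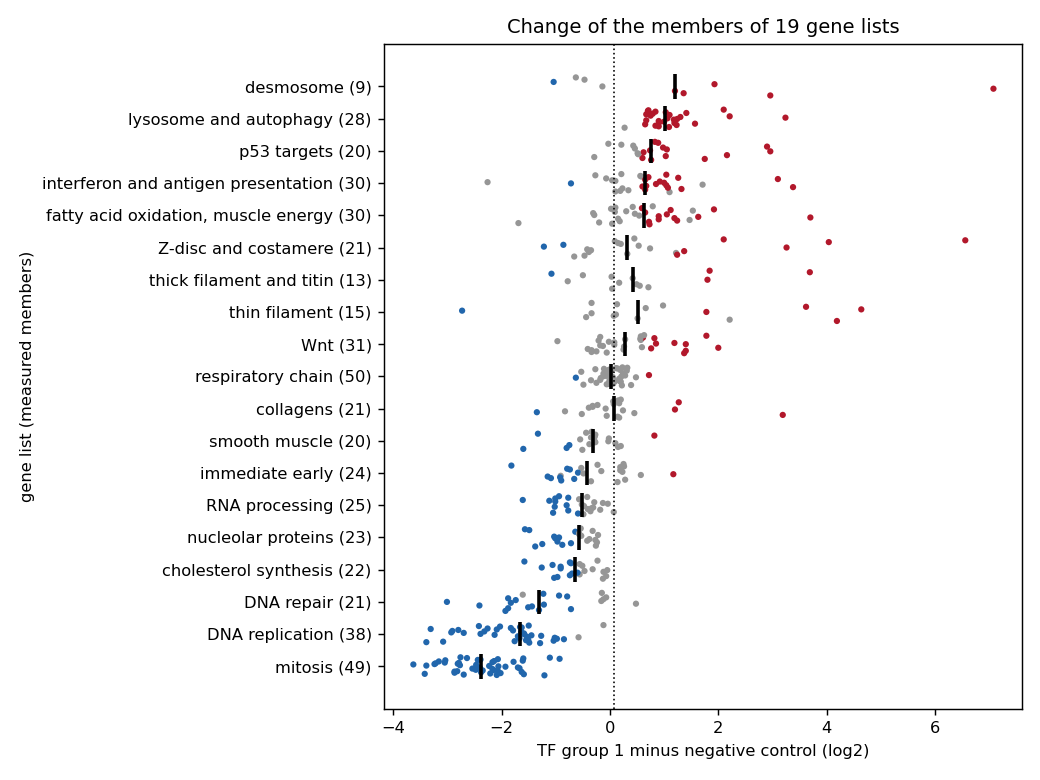
Change of each measured member of 19 gene lists (TF group 1 minus negative control, log2, horizontal axis), with members called higher in red, called lower in blue and not called in grey. A black bar marks each list's median, from -2.39 for mitosis to 1.20 for the desmosome, and the dotted line is the median of all genes at 0.07. With the arrays scaled to their spikes all points move left by 0.88.

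The fibroblast character of the cells was checked with 9 genes chosen for it, and none of the 9 passed both thresholds of the limma fit. Thy1 averaged 11.53 in the negative control and 11.22 in TF group 1, Pdgfra 10.72 and 10.81, Pdgfrb 11.62 and 11.23, Twist1 9.78 and 9.79, Prrx1 11.91 and 11.63 and Vim 13.81 and 13.99. The collagen chains Col1a1, Col1a2 and Col3a1 averaged 12.84 and 12.78, 13.61 and 13.81, and 13.34 and 13.79. All 9 stayed bright in both groups. Of the dimmer probe sets 1 of Col3a1 was called higher (10.77 to 11.63) and 1 of the 3 of Prrx1 lower (10.00 to 9.06). In a wider list of 26 fibroblast regulators and surface proteins 4 (15.4%) rose and 7 (26.9%) fell (3 and 19 spike-scaled), beside 15.1% and 8.93% of all genes. Meox2, a homeobox gene of mesoderm, fell from 7.83, 7.70 and 7.71 to 5.09, 5.79 and 4.88 and Twist2, a relative of Twist1, from 10.36, 10.51 and 10.43 to 9.07, 9.12 and 9.15. Cd34, a surface marker of stromal progenitors, rose by 2.06.

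Matrix genes were counted by class. Of 21 collagens 3 (14.3%) rose and 1 (4.76%) fell (1 and 17 spike-scaled), and their median change of 0.07 was that of all genes. Of 33 matricellular and elastic fibre genes 9 rose and 5 fell (0 and 19 spike-scaled). Small leucine-rich proteoglycans, which coat collagen fibrils, were among those that rose, with lumican (Lum) from 10.49, 10.64 and 10.45 to 12.25, 12.17 and 12.53 and decorin (Dcn) and fibromodulin (Fmod) by 1.09 each. Mfap4 and Mfap5, proteins of elastic fibres, fell by 2.47 and 2.09 and tenascin C (Tnc) by 1.07. Of 21 matrix proteases and inhibitors 4 rose and 5 fell (0 and 13 spike-scaled), with Timp3, an inhibitor of metalloproteases, higher by 1.45 and stromelysin (Mmp3) lower by 1.84. Of 20 integrins and laminins 8 (40%) rose and 1 (5%) fell (1 and 7 spike-scaled), beside 15.1% and 8.93% of all genes. Itga7, the laminin receptor of muscle, rose by 2.20 and Itga5, the fibronectin receptor, fell by 1.06.

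Of 42 genes for FGF, EGF, PDGF, IGF and VEGF signals 8 (19%) rose and 7 (16.7%) fell (6 and 24 spike-scaled), beside 15.1% and 8.93% of all genes. Igf2, the fetal growth factor, fell 4.43-fold, from 12.78, 12.86 and 12.87 to 11.12, 10.38 and 10.57. Igf1 rose from 7.99, 7.93 and 8.19 to 10.16, 9.68 and 9.81. The IGF-binding proteins Igfbp2, Igfbp5 and Igfbp3 rose by 2.10, 1.84 and 1.66, while Igfbp6 fell by 1.34. Of 31 Wnt genes 10 (32.3%) rose and none fell (2 and 12 spike-scaled), and the inhibitors Sfrp1, Sfrp2 and Wif1 rose by 2.00, by 1.78 and at least 2.05-fold. Axin2, a feedback target of the pathway, rose by 1.37. Of 38 genes of TGF-beta and BMP signals 7 (18.4%) rose and 5 (13.2%) fell (0 and 23 spike-scaled). Tgfb2 was higher by 1.27 and Inhba, the activin subunit, lower by 1.25. Of 22 Notch genes 3 (13.6%) rose and 5 (22.7%) fell (3 and 16 spike-scaled), with a median change of -0.34. The receptor Notch3 was higher by 1.72, while Hey2, given above, was lower by 1.06. Of 24 immediate early and serum response genes 1 rose and 9 fell (0 and 19 spike-scaled). Fosl1, an AP-1 subunit, fell from 10.26, 10.33 and 10.31 to 8.40, 8.63 and 8.43 and Dusp1, a phosphatase of MAP kinases, by 1.09.

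Of 35 chemokines and cytokines 10 (28.6%) rose and 9 (25.7%) fell (3 and 16 spike-scaled), beside 15.1% and 8.93% of all genes. Il1rn, the antagonist of the interleukin-1 receptor, rose from 8.91, 8.27 and 8.54 to 11.26, 10.95 and 11.06, and Il33, an alarmin, by 2.25. Ccl2, the chemokine that recruits monocytes, fell from 10.37, 10.53 and 10.53 to 8.43, 8.42 and 8.78, and Ccl7, its relative, by 1.74. Of 30 genes of the interferon response and of antigen presentation 15 rose and 1 fell (2 and 8 spike-scaled, and 10 and 1 with the arrays centred on their medians), with a median change of 0.65. Ifit1, an interferon-induced protein that binds viral RNA, rose from 6.48, 6.03 and 6.88 to 9.46, 9.60 and 9.62. Tap1, the peptide transporter of antigen presentation, rose by 1.32.

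Stress genes were mixed. Of 25 genes of the unfolded protein and integrated stress response 7 (28%) rose and 2 (8%) fell (1 and 14 spike-scaled), beside 15.1% and 8.93% of all genes, with Ddit3 (CHOP) higher by 1.49 and the serine synthesis enzyme Phgdh lower by 1.15. Of 16 heat shock genes 4 (25.0%) rose and 2 (12.5%) fell (0 and 11 spike-scaled). Of 20 annexins and carbonic anhydrases 8 rose, all of them carbonic anhydrases, and none fell (2 and 9 spike-scaled). The annexin gene Anxa10, among the largest rises above, is not in this list. Of 28 HOX genes 2 (7.14%) rose and 3 (10.7%) fell (0 and 20 spike-scaled).

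Markers of other cell types were counted to see what else the cultures might hold. Of 19 endothelial markers 2 rose and 1 fell (0 and 8 spike-scaled), with a summed signal of 1564 to 1681 in the negative control and 1171 to 1284 in TF group 1. Of 26 macrophage and blood markers 2 rose and 3 fell (0 and 12 spike-scaled), with a summed signal of 1319 to 1365 in the negative control and 1123 to 1198 in TF group 1. Those that rose were F13a1 and Laptm5, and the median change of the list was -0.02. Those that fell were Ctss, Lyz1, which encodes lysozyme, and Tyrobp, an adaptor of myeloid receptors. Lyz1 went from 7.15, 7.14 and 7.40 to 3.99, 3.60 and 4.22, and Tyrobp averaged 4.94 and 1.74, both below 32. The call of Tyrobp was lost without TF group 1 replicate 1 or 2 or negative control replicate 1 or 3 (limma adjusted p = 0.0849 to 0.104). Of the 26 markers 11 in the negative control and 13 in TF group 1 averaged below 32. Of 21 epithelial markers 6 rose and 3 fell (3 and 6 spike-scaled), with a summed signal of 1273 to 1468 in the negative control and 2078 to 2223 in TF group 1. Keratin 18 (Krt18) rose from 6.74, 7.08 and 7.00 to 9.07, 9.08 and 9.13, the mesothelial protein Msln by 1.94, while Krt7 fell by 1.64. Of 25 neuronal and glial markers 6 rose and 1 fell (3 and 10 spike-scaled), with a summed signal of 4528 to 5010 in the negative control and 7519 to 8206 in TF group 1. Tubb3, neuronal tubulin, rose from 6.51, 6.78 and 6.80 to 9.15, 8.82 and 8.83 and the growth protein Stmn2 by 2.09. Of 21 adipocyte markers 3 rose and 3 fell (1 and 11 spike-scaled), with a median change of 0.02. The largest change of this list was a rise, and the carbonic anhydrase Car3 was among the 3 that rose. Among the 3 that fell were Pparg, the master regulator of fat cells, at least 2.67-fold and the lipid carrier Fabp4 by 1.95. Of 18 cartilage and bone markers 6 rose and 1 fell (0 and 5 spike-scaled), with Sox9 higher by 1.15. Of 21 endoderm and liver markers 2 rose and none fell (0 and 7 spike-scaled). These counts are beside the same backgrounds of 15.1% and 8.93%, and the part of other cells in the results above was not tested.

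TF group 1 was also set against the groups with more factors, comparisons that share the TF group 1 arrays. Against TF group 2, 221 genes (1.78%) lay higher in TF group 1 and 258 (2.08%) lower, and against TF group 3, 378 (3.05%) and 404 (3.26%). The genes with the largest differences were much lower in TF group 1. Myl1, the essential light chain of fast and embryonic muscle, was 4.39, 4.55 and 5.39 in TF group 1, averaged 13.06 in TF group 2 and 11.93 in TF group 3, and lay at 4.74 in the negative control. Grp, gastrin-releasing peptide, averaged 4.19, 12.30 and 8.88 in TF groups 1, 2 and 3, F13a1, the clotting factor subunit, 4.84, 11.77 and 10.50, and carbonic anhydrase Car2 5.71, 11.13 and 11.39. Nefl, a neurofilament chain, averaged 4.16, 9.62 and 7.05. The genes that set TF group 1 below TF group 3 included contractile ones and the natriuretic peptide Nppa. Myh6 averaged 1.34 and 7.70, Myh11 5.83 and 11.46, and Nppa 6.74 and 10.65. The other, dimmer probe set of Myh6 averaged 0.76 and 0.43, both below 32. Lhx1, a homeobox gene, and Sez6l2, a membrane protein of neurons, averaged 2.20 and 6.05 in TF group 1 against 8.26 and 10.76. Of the 21 Z-disc genes 3 lay below their level in TF group 2 and 4 below that in TF group 3, and of the 20 smooth muscle genes none and 11. No p53 target differed from either group, and of the 28 lysosome genes 2 were lower than in TF group 2 and 1 higher than in TF group 3.

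Some genes were higher in TF group 1 than in every other group. Called higher in TF group 1 against the negative control, TF group 2 and TF group 3 alike were 71 genes (0.573%), and called lower against all 3 were 18 (0.145%). With the spike scaling only 33 genes were called higher than in TF group 2, so at most that many of the 71 would remain. The first set held several secreted proteins. Ceruloplasmin (Cp), the copper carrier of plasma, averaged 6.30 in the negative control, 9.04 in TF group 1, 7.47 in TF group 2 and 6.92 in TF group 3. The complement proteases C1s1 and C1ra averaged 6.75, 9.18, 7.82 and 7.20, and 6.49, 8.92, 8.09 and 7.45. Sfrp2 was 9.74, 9.09 and 8.97 in TF group 1 and averaged 7.48 in the negative control, 6.84 in TF group 2 and 6.09 in TF group 3. The neuropeptide Vip averaged 7.52, 9.37, 6.86 and 7.26, and its TF group 1 arrays spread from 8.54 to 10.11. Its calls did not hold when single arrays were left out, among them TF group 1 replicate 3, without which the limma adjusted p was 0.0654, 0.0684 and 0.089 against the negative control and TF groups 2 and 3. Il1rn averaged 8.57, 11.09, 10.00 and 9.29, the fibrinogen-like protein Fgl2 5.95, 8.91, 6.54 and 8.02, and the proteoglycan Epyc 3.50, 7.14, 5.19 and 3.79. The transcript 2210407C18Rik, of unknown function, averaged 4.03, 7.89, 5.23 and 5.07. The second set held Nptx2, a neuronal pentraxin, at 7.45, 6.20, 8.82 and 10.32, the prostaglandin synthase Ptgds at 6.52, 5.35, 9.58 and 7.99, the bone morphogenetic protein Bmp4 at 10.97, 10.29, 11.48 and 11.22, and Myl2 at 5.43, 4.34, 6.24 and 7.17.

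**Figure D5:**
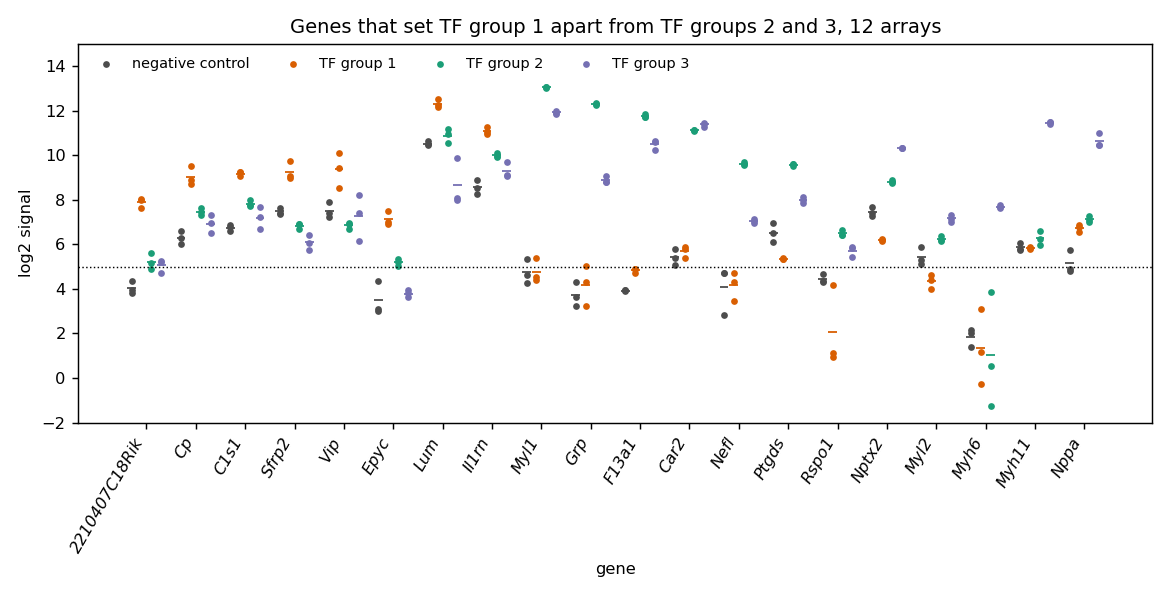
Log2 signal (vertical axis) of 20 genes on all 12 arrays, 3 per group, with a bar at each group mean and a dotted line at a signal of 32. Cp, C1s1, Sfrp2, Vip, Epyc, Il1rn and 2210407C18Rik are highest in TF group 1, while Myl1, Grp, F13a1 and Car2 lie within 1 log2 unit of the negative control there and are bright in TF groups 2 and 3.

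The genes that differed most from the negative control varied in how they compared among the TF groups. Dsp averaged 10.79, 11.10 and 11.11 in TF groups 1, 2 and 3, and Tnnc1 10.92, 10.85 and 11.87. Tnnt2 averaged 10.76 and 10.99 in TF groups 1 and 2, and TF group 1 was lower than TF group 3 (12.43) by 1.67. Myl7 exceeded its level in TF group 2, at a mean of 6.65 against 5.02, and Tnni1 higher than in TF group 3, at 7.28 against 5.17. Smpx, Pdlim3 and Casq2 were lower than in TF group 2 by 1.77, 2.69 and 1.89. Leaving out any 1 of the 6 arrays raised the limma adjusted p of the Smpx difference to 0.0546 to 0.0649, and leaving out any but TF group 3 replicate 3 that of Tnni1 to 0.0589 to 0.0794. Pdgfra, which did not differ from the negative control in TF group 1, was higher there than in TF groups 2 and 3 by 0.98 and 1.38.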

How the data were processed

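RNA of whole cultures was amplified and hybridised by a core facility to 1-colour mouse 3′ expression arrays. The authors deposited 1 linear intensity per probe set and array, scaled so that the trimmed mean was equal on all arrays. Their notes name RMA and Partek without versions, which does not settle how the signals were made. No values were added before log2. 64 control probe sets were left out. A linear model over the 12 arrays was fitted with limma 3.58.1 (R 4.3.3), with 1 coefficient per group and Benjamini-Hochberg adjustment over 22626 probe sets, and the rest was computed with Python 3.11.15. The fit was also run on simulated data with few changed probe sets and no shift of whole arrays. That setting is unlike these data, and its outcome is not given here. Names came from the platform annotation, and 691 probe sets with several symbols and 1555 with none were not named. The probe set with the highest mean signal stood for a gene. Text genes were the 12 largest rises and falls with groups apart, up to 5 called members per direction of each gene list, the 8 largest differences each way from TF groups 2 and 3, genes called against all 3 groups, delivered factors, genes the study measured by PCR, and fibroblast markers. Members and lists were chosen with earlier results of these data known. Promoters were taken from RefSeq (GRCm38.p6) by symbol, and 9887 of 12393 genes matched. For 4163 symbols with several windows the first was used. Alternatives covered the scaling, an offset of 50, dim probe sets, thresholds, the variance model, array weights, the replicate block and single arrays left out. The number of arrays limits the precision, and nothing says that the replicates were separate animals, so p-values measure the spread between these samples. One item is not reported here.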

Additional observations from a re-analysis of the deposited data

Results flagged for a closer look

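In 22 genes with a group mean of 32 or more TF group 1 and a group with more factors were called in opposite directions against the negative control, and limma called the difference between the TF groups as well. Gfi1 met the same rule but was left out, since all its group means lay below 32. Each value is the log2 change of TF group 1 minus that of the other group, given once per gene, against the group with the larger difference. Against TF group 3 it was positive for Aspn 1.49, Ccn3 1.56, Clec11a 1.51, Cxcl1 2.12, Emb 1.65, Gas2 1.44, Lum 3.67, Phlda2 4.23, Ripk4 1.72 and Sfrp2 3.18. These include the proteoglycans Lum and Aspn of the matrix, the Wnt inhibitor Sfrp2 and the chemokine Cxcl1. It was negative for Col7a1 -1.53, Ifi27l2b -2.1, Lmod1 -1.4, Myl2 -2.82, Nexmif -1.45, Nnat -1.83, Nptx2 -4.12 and Optc -1.62. Lmod1, a smooth muscle actin regulator, and Myl2 are contractile genes among these. Against TF group 2 it was Adcy7 -1.76, Nap1l5 -2.61, Ptgds -4.23 and Rspo1 -4.43. Rspo1 enhances Wnt signals and Ptgds makes a prostaglandin. Aspn, Sfrp2, Myl2 and Nptx2 met the rule against TF group 2 as well, with differences of 1.27, 2.42, -1.90 and -2.62, and Nap1l5 and Ptgds against TF group 3, with -2.01 and -2.64. In 5 genes one of the 2 TF groups averaged below 32, so that the fitted difference is no measured fold. With the dimmer group at 32 the difference was at least 1.11-fold for Phlda2, 3.12-fold for Ripk4, 4.49-fold for Myl2, 2.45-fold for Nexmif and 2.84-fold for Rspo1. Phlda2 averaged 2.33 in the negative control and 0.92 in TF group 3, and Rspo1 4.44 in the negative control and 2.07 in TF group 1. Each of these 2 falls therefore lies wholly below 32. With the spike scaling the rises of Aspn, Cxcl1 and Gas2 in TF group 1 become -0.28, -0.11 and -0.12.

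The control probe sets, which enter none of the comparisons, also differed between TF group 1 and the negative control. The poly-A spikes were higher by 0.88, 18S rRNA by 1.31 and the hybridization spikes by 0.39 on the log2 scale. In each set the 3 arrays of the groups lay apart. The exact permutation test, two-sided, gave p = 0.1 for each, the smallest it can give with 3 arrays against 3.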

How the results depend on the processing

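Fold thresholds and the scaling of the arrays moved the counts most. Against the negative control, main counts 1867 higher and 1107 lower, a fold over 2 left 919 and 523, no fold threshold gave 3147 and 2234, and the spike scaling 349 and 6781. Against TF group 2, main counts 221 and 258, these were 69 and 142 with a fold over 2 and 534 and 485 with none. The spike scaling gave 33 higher genes, and the methods' linear model without moderation or adjustment 365. Against TF group 3, main counts 378 and 404, a fold over 2 left 136 and 222, none gave 1000 and 895, and the spike scaling 94 higher genes. Of genes called over 2-fold 15.5% of those higher held a CHR, and 27.0% and 48.6% of those lower a CHR and a CCAAT box.

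Leaving out 1 array at a time gave 1760 to 1861 and 1057 to 1126 genes against the negative control, 177 to 205 and 195 to 231 against TF group 2, and 324 to 368 and 350 to 387 against TF group 3. No pairing by replicate number was seen over all probe sets, where same-numbered arrays deviated together at r = -0.023 to 0.026. Whether samples of different groups shared a culture or batch was not tested. The replicate block gave 1834 and 1095, 194 and 224, and 371 and 388 genes.

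Of 214 called differences of genes named in the report, 166 kept their call under every alternative run, 179 under the spike scaling, 213 with the replicate block and 204 under each array left out. The spike scaling turned the small positive changes of Col1a2 to -0.68, Ezh1 to -0.02, Gjb5 to -0.07, Hand2 to -0.78, Hopx to -0.64, Nppb to -0.22, Pdgfra to -0.79, Twist1 to -0.87 and Vim to -0.70, by its own construction. The cause of the unequal spikes was not tested. Dim probe sets limit the precision, since a group mean below a signal of 32 bounds a fold only.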
